A study of Rattus norvegicus with 16 samples.

Results

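Diaphragm RNA of rats ventilated for 12 h with electrical stimulation of the muscle (E-V12) was compared with that of rats ventilated for 12 h after the same operation without stimulation (S-V12). The comparison takes in the 4 E-V12 and 4 S-V12 arrays of a series of 16, and all 23188 transcript clusters of the Clariom S rat array, with control probe sets left out. All animals were male Wistar rats of 14 to 16 weeks, with 1 array per rat. E-V12 rats had a tracheostomy and a midline abdominal incision under urethane anesthesia, hook electrodes placed in both sides of the diaphragm, supplemental oxygen, and stimulation throughout ventilation. S-V12 rats had the same anesthesia, tracheostomy, incision, electrodes, oxygen and ventilation, and no current. The other groups, 4 arrays each, were V12 (tracheostomy and 12 h of ventilation, no incision) and CON (no ventilation, diaphragm taken after anesthesia), and their levels are given for orientation. The specimen was diaphragm with its tendon centre and rib portion dissected. The methods leave unclear if the tissue around the electrode was discarded or taken. Vessels, nerve and blood can be present in it beside muscle fibers, and fewer cells of a type cannot be told apart from less RNA per cell. No time other than the end of ventilation was sampled, and E-V12 had no group without ventilation, so stimulation was measured here only on top of surgery and ventilation.

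The diaphragm is the main muscle of inspiration and contracts without rest, and its fibers depend on mitochondrial respiration. Under controlled ventilation its phasic activity is suppressed, and the fibers atrophy within hours. Contractile activity is known to act on muscle genes through calcium, AMP-activated kinase and mechanical load, and regulators such as MEF2, NFAT, SRF and the PPARs carry these signals to genes of fuel use and contraction. The proteins of the ribosome and of the respiratory chain are made from short, strongly expressed genes.

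Among 23188 clusters, 277 were higher in E-V12 than in S-V12 and 351 were lower at an adjusted p under 0.05 (limma, Benjamini-Hochberg, n = 4 per group), which is 1.19% and 1.51% of those tested. Of these, 149 higher and 265 lower clusters carried a gene symbol, or 0.99% and 1.76% of the 15049 named clusters. Among the 8574 clusters with a mean signal above background, 238 were higher and 324 lower. Those shares are larger than the shares over all named clusters, and lists of strongly expressed genes are to be read against them as well. Groups did not overlap for 271 of the 277 clusters called higher and 342 of the 351 called lower. Selection by p on the same arrays makes that likely, so it is no separate support. Over all clusters the shares without overlap were 6.11% higher and 7.35% lower. Called differences had a median size of 1.01 on the log2 scale and a smallest size of 0.65. At a fold of 2 and an unadjusted p under 0.05, the threshold of the study, the share was 0.884% higher and 1.01% lower. The adjusted counts rested on every one of the 8 arrays: without E-V12 replicates 1 to 4 in turn they were 129, 135, 45 and 193 higher and 240, 198, 29 and 118 lower, and without S-V12 replicates 1 to 4 in turn they were 126, 88, 181 and 82 higher and 128, 78, 140 and 113 lower. E-V12 replicate 3 moved them most. Without CON replicate 1 they were 526 and 656. None of the 114 called genes named below changed sign when any array was omitted or under any other alternative. They were called on these same arrays, most with separate groups, where omission of an array cannot turn the sign. The constant sign is therefore no further support for the calls.

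**Figure D1:**
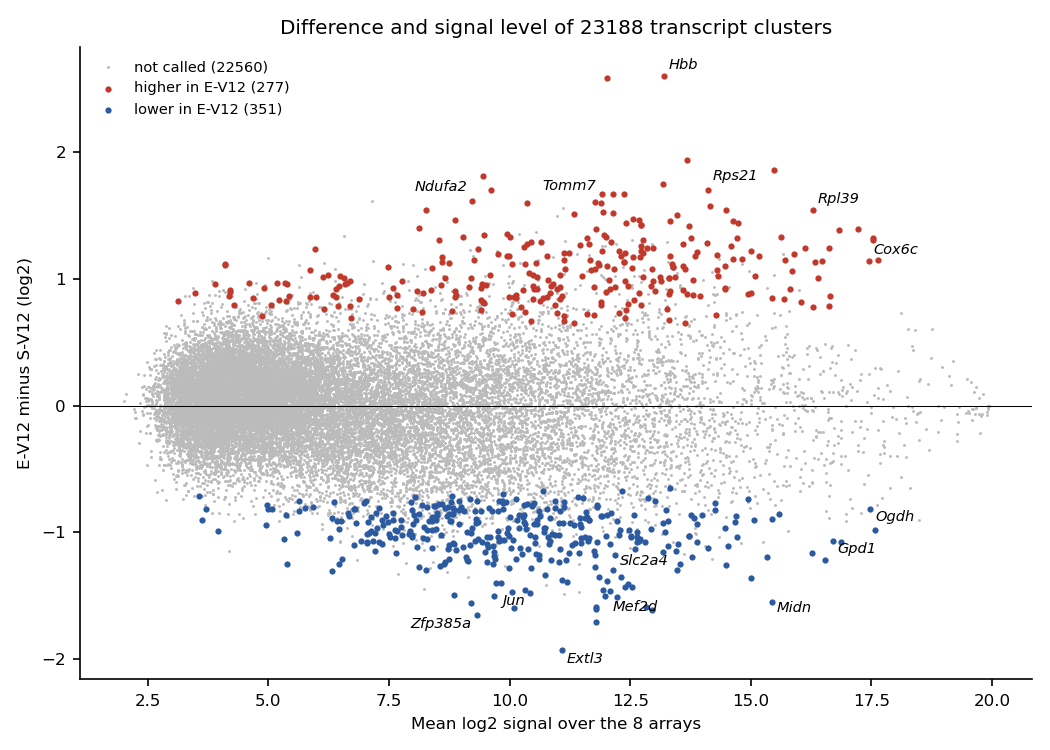
Log2 difference of E-V12 minus S-V12 (vertical axis) against the mean log2 signal over the 8 arrays (horizontal axis), 1 point per transcript cluster. Red points are the 277 called higher and blue points the 351 called lower. Hbb, a haemoglobin chain, has the largest rise at 2.60 and Extl3 the largest fall at -1.93.

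To show what stands before genes at both ends of the comparison, the sequences below run from position -110 to position 20 around the RefSeq start of each gene (build GRCr8), 5′ to 3′ on the strand of the gene. The first 8 lines are ribosomal, respiratory and mitochondrial membrane genes that rose, and the last 3 are genes that fell. They were picked by hand, so the contrast between these lines is not typical of the called genes. Shares over all called genes follow the sequences. Capitals mark a pyrimidine run that opens at the start with C and goes on with at least 4 C or T, an ETS motif (CCGGAAG), an NRF1 motif (GCGCA followed at once by its reverse complement) or a GC box (GGGCGG), the last 3 on either strand. In Rpl39 the pyrimidine start and an ETS motif on the other strand share bases.
Rpl9 (chr14:43247480-43247609, plus strand): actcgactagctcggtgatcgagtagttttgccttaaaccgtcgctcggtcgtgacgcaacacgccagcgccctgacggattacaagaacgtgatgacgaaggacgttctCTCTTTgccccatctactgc
Rpl39 (chrX:121195877-121196006, minus strand): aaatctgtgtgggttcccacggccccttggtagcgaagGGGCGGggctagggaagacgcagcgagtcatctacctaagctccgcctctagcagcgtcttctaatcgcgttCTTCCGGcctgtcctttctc
Rpl38 (chr10:100200325-100200454, plus strand): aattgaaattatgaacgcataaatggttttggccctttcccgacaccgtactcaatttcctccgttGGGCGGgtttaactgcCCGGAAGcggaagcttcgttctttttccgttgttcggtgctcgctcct
Rps21 (chr3:187723928-187724057, plus strand): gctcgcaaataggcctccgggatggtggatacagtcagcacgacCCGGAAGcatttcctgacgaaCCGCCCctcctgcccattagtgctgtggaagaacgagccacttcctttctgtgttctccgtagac
Cox7a2 (chr8:89601130-89601259, minus strand): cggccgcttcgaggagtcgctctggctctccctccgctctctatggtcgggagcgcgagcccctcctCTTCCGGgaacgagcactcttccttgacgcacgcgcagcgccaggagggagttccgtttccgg
Uqcrq (chr10:38089959-38090088, minus strand): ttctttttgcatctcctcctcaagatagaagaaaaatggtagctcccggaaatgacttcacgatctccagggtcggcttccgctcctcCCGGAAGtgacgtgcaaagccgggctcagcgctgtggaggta
Romo1 (chr3:165119684-165119813, plus strand): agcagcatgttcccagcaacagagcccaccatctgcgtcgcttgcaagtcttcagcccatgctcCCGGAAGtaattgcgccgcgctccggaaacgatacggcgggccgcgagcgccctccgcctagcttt
Tomm7 (chr4:12197393-12197522, plus strand): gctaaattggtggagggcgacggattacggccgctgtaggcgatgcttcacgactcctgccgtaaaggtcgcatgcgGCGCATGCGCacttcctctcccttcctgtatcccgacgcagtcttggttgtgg
Mef2d (chr2:175904222-175904351, plus strand): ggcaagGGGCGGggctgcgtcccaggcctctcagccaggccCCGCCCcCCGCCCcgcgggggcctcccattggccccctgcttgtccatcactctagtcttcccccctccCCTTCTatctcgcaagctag
Zfp385a (chr7:136353998-136354127, minus strand): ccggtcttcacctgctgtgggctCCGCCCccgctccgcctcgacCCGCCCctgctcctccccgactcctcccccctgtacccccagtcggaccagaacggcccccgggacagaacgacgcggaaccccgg
Slc7a8 (chr15:32212696-32212825, minus strand): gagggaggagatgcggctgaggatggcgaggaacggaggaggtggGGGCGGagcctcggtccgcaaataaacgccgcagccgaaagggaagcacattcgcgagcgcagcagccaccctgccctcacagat
A start of that pyrimidine kind was present in 39.7% of the 58 measured ribosomal protein genes with a promoter entry, called or not, against 2.63% of all 27457 promoters. The share was 8.46% for called higher genes, 1.85% for called lower genes and 2.51% for genes above background. For called higher genes that are neither ribosomal nor respiratory it was 1.14%. Such a start is the mark of messengers whose translation follows the growth kinase mTOR. Within the whole 300 bases, the ETS motif was in 30.0% of the 130 promoters of called higher genes and 16.7% of the 216 of called lower genes, against 21.0% of the 5209 promoters of genes with a mean signal above background. The GC box was in 56.2% of the promoters of higher genes and 68.5% of those of lower genes, against 64.8% above background. The NRF1 motif was in 2.31% of the promoters of higher genes and 0.463% of those of lower genes, against 2.13% above background. Also searched were the E-box CACGTG, with shares of 6.92%, 12.0% and 10.6% for higher genes, lower genes and genes above background, and a YY1 motif (AAGATGG followed by C), with 3.08%, 11.1% and 7.14%. Over all 27457 promoters the ETS motif was in 9.22%, the GC box in 34.9%, the NRF1 motif in 0.932%, the E-box in 6.65% and the YY1 motif in 3.44%. The last 2 are not marked in the sequences shown. Motifs were matched letter by letter on both strands, and a match does not show that a factor binds. Mef2d, which fell, has a pyrimidine start as well.

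Genes of cytosolic ribosomal proteins rose together in E-V12. Of 42 measured large-subunit genes 18 were higher and 0 lower, and of 26 small-subunit genes 9 were higher and 0 lower, against 0.99% higher over all named clusters. The median log2 difference of the 68 genes was 0.82, against 0.00 over all symbols, and 67 lay above 0. For 54 every E-V12 array lay above every S-V12 array, against 6.11% of all clusters. Averaged over the 68 genes, the signal was 13.78, 13.67, 13.84 and 13.48 on the E-V12 arrays, against 12.90, 12.79, 13.07 and 12.66 on the S-V12 arrays. The V12 arrays ran from 13.31 to 13.95 and the CON arrays from 12.38 to 13.72, so that the S-V12 arrays lay below every V12 array and E-V12 within the range of V12.

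Rps21, a protein of the small subunit, had log2 signals of 15.10, 14.997, 15.03 and 14.71 in E-V12, against 13.57, 13.51, 13.29 and 12.66 in S-V12. All E-V12 arrays were above all S-V12 arrays, with a difference of 1.70 ± 0.40 (SE; adjusted p = 0.0264). Rpl39, a small protein at the exit tunnel, had log2 signals of 17.13, 16.99, 17.08 and 17.07 in E-V12, against 15.75, 15.51, 15.66 and 15.17 in S-V12, a difference of 1.55 ± 0.38 (adjusted p = 0.0306), and its E-V12 values lay close together. Rpl9 had log2 signals of 13.05, 13.28, 13.19 and 12.99 in E-V12, against 11.75, 11.50, 12.08 and 11.41 in S-V12, a difference of 1.44 ± 0.35 (adjusted p = 0.0298). Rps29, a zinc-binding protein of the small subunit, had log2 signals of 18.25, 18.33, 18.52 and 17.65 in E-V12, against 16.73, 16.88, 17.15 and 16.70 in S-V12, a difference of 1.32 ± 0.24 (adjusted p = 0.00843). Neither Rpl9 nor Rps29 had overlapping groups. Rpl38, whose loss alters translation of homeobox messengers in mice, differed by 1.601 ± 0.22 (adjusted p = 0.0033). The other named members, Rpl30, Rpl23, Rpl32, Rps28, Rps25 and Rps12, differed by 1.08 to 1.28 (adjusted p from 0.00672 to 0.0176), each with separate groups. Many ribosomal proteins have processed pseudogenes of nearly the same sequence, so a probe set may read more than 1 locus.

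Translation factors moved in part: 4 of 40 rose and 0 fell, with a median of 0.03, against 0.99% higher over all named clusters. The 4 were Eif3m and Eif3e of initiation factor 3, Eef1b2, an exchange factor of elongation, and Tpt1, which belongs to the same growth-regulated messengers. Eif3m had log2 signals of 13.38, 13.22, 13.47 and 13.06 in E-V12, against 12.13, 11.75, 12.61 and 11.93 in S-V12, a difference of 1.17 ± 0.26 (adjusted p = 0.0206). Eef1b2 differed by 1.10 ± 0.26, Eif3e by 0.80 ± 0.21 and Tpt1 by 0.78 ± 0.18 (adjusted p from 0.0274 to 0.0429). Of the 15 ribosomal and translation calls named, Rpl38, Rpl30, Rps28 and Rps29 held under all 25 alternatives. Among those 15 calls, the number kept was 10, 10, 4 and 12 without E-V12 replicates 1 to 4 in turn and 10, 8, 12 and 6 without S-V12 replicates 1 to 4, and 14 without V12 replicate 2. Calls lost without 1 array had an adjusted p of up to 0.16, and the methods' t-test kept 13 (up to 0.067 in those lost). The large-subunit count of 18 was 9, 8, 2 and 9 without E-V12 replicates 1 to 4 in turn and 8, 7, 12 and 6 without S-V12 replicates 1 to 4, and that of 9 for the small subunit was 5, 5, 2 and 8 and 6, 5, 6 and 3. Without CON replicate 1 the counts for the subunits were 27 and 17. The translation factor count of 4 was 2, 2, 0 and 4 without E-V12 replicates 1 to 4 in turn and 2, 0, 3 and 0 without S-V12 replicates 1 to 4.

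Genes of the respiratory chain were also called higher, and the complexes were not tested against each other. Of 94 measured genes of complexes I to V and their assembly, 26 were higher and 0 lower, with a median of 0.51, against 0.99% higher over all named clusters. Complex I, which takes electrons from NADH, held 13 of the 26. All 13 were among the 26 accessory subunits (median 0.83). For 20 of these subunits every E-V12 array lay above every S-V12 array, against 6.11% of all clusters. Of the 6 measured core subunits, which carry out catalysis, 0 were called (median 0.27), and of the 5 assembly factors 0 (median 0.09). In the core 3 were higher at an unadjusted p under 0.05 and among assembly factors 1, with 0 lower and 0 passing the methods' t-test, and the difference between these kinds of gene was not tested. Complex II, which passes electrons from succinate, had 0 of its 4 subunits called and all 4 below 0, with a median of -0.24 with 0 at an unadjusted p under 0.05 and 0 by the methods' t-test. Its mean signal was 14.33, 14.46, 14.34 and 14.34 on the E-V12 arrays, against 14.60, 14.49, 14.78 and 14.51 on the S-V12 arrays, so that the groups did not overlap. Complex III had 4 of 9 subunits higher and 2 below 0, Cyc1 the lowest at -0.53, and the fifth called gene of that list was Uqcc2, one of its assembly factors. Over the 19 genes of complexes II and III the median was -0.07, with 10 below 0. Before adjustment 6 were higher and 4 lower at p under 0.05. For complex IV 5 of 23 genes were higher and for the ATP synthase 3 of 15, with 0 lower.

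Ndufa2, an accessory subunit of complex I, had log2 signals of 10.36, 10.13, 9.78 and 9.86 in E-V12, against 8.33, 8.55, 8.78 and 8.003 in S-V12, a difference of 1.62 ± 0.31 (adjusted p = 0.0106). Ndufa1, at the membrane arm, had log2 signals of 13.87, 14.26, 14.04 and 14.02 in E-V12, against 12.78, 12.55, 12.74 and 12.29 in S-V12, a difference of 1.46 ± 0.24 (adjusted p = 0.00524). In both, every E-V12 array lay well above every S-V12 array. Ndufb2, Ndufb3 and Ndufa7, 3 more accessory subunits, differed by 1.15 to 1.40 (adjusted p from 0.00566 to 0.0114). In complex III, Uqcrb had log2 signals of 15.59, 15.58, 15.33 and 15.07 in E-V12, against 14.21, 14.14, 14.63 and 13.95 in S-V12, a difference of 1.16 ± 0.22 (adjusted p = 0.00909). Uqcrq, Uqcr11, Uqcr10 and Uqcc2 differed by 0.87 to 1.08 (adjusted p from 0.0182 to 0.0452).

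Cox6c, a nuclear-coded subunit of cytochrome c oxidase, had log2 signals of 18.13, 17.97, 18.07 and 17.89 in E-V12, against 16.99, 17.05, 16.71 and 16.74 in S-V12, a difference of 1.15 ± 0.19 (adjusted p = 0.00524), with little spread in either group. Cox7a2 had log2 signals of 16.25, 16.33, 16.40 and 16.17 in E-V12, against 14.76, 15.27, 15.23 and 14.56 in S-V12, a difference of 1.33 ± 0.22 (adjusted p = 0.00566). Cox8b, the form of subunit 8 found in heart and skeletal muscle, differed by 1.31 ± 0.25 (adjusted p = 0.0112), Cox17, a copper chaperone of the complex, by 0.94 ± 0.23 (adjusted p = 0.0314) and Cox5a by 0.86 ± 0.19 (adjusted p = 0.0215). Atp5f1e, the epsilon subunit of the ATP synthase, had log2 signals of 15.34, 15.33, 15.61 and 14.78 in E-V12, against 13.63, 13.62, 14.00 and 13.63 in S-V12, a difference of 1.54 ± 0.39 (adjusted p = 0.0346), with S-V12 replicate 3 above the other S-V12 arrays. Atp5pd and Atp5pf, 2 subunits of its stalk, differed by 0.89 and 0.86 (adjusted p = 0.0316 and 0.0467), and the groups overlapped for Atp5pd. The 10 clusters of the mitochondrial chromosome, which have no symbol, differed by at most 0.197 in size on the log2 scale, and 0 were called by limma or at an unadjusted p under 0.05. Of the 10, 8 stood at 19.89 or more on all 8 arrays, near the highest value in the table (19.93), where values are compressed.

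**Figure D2:**
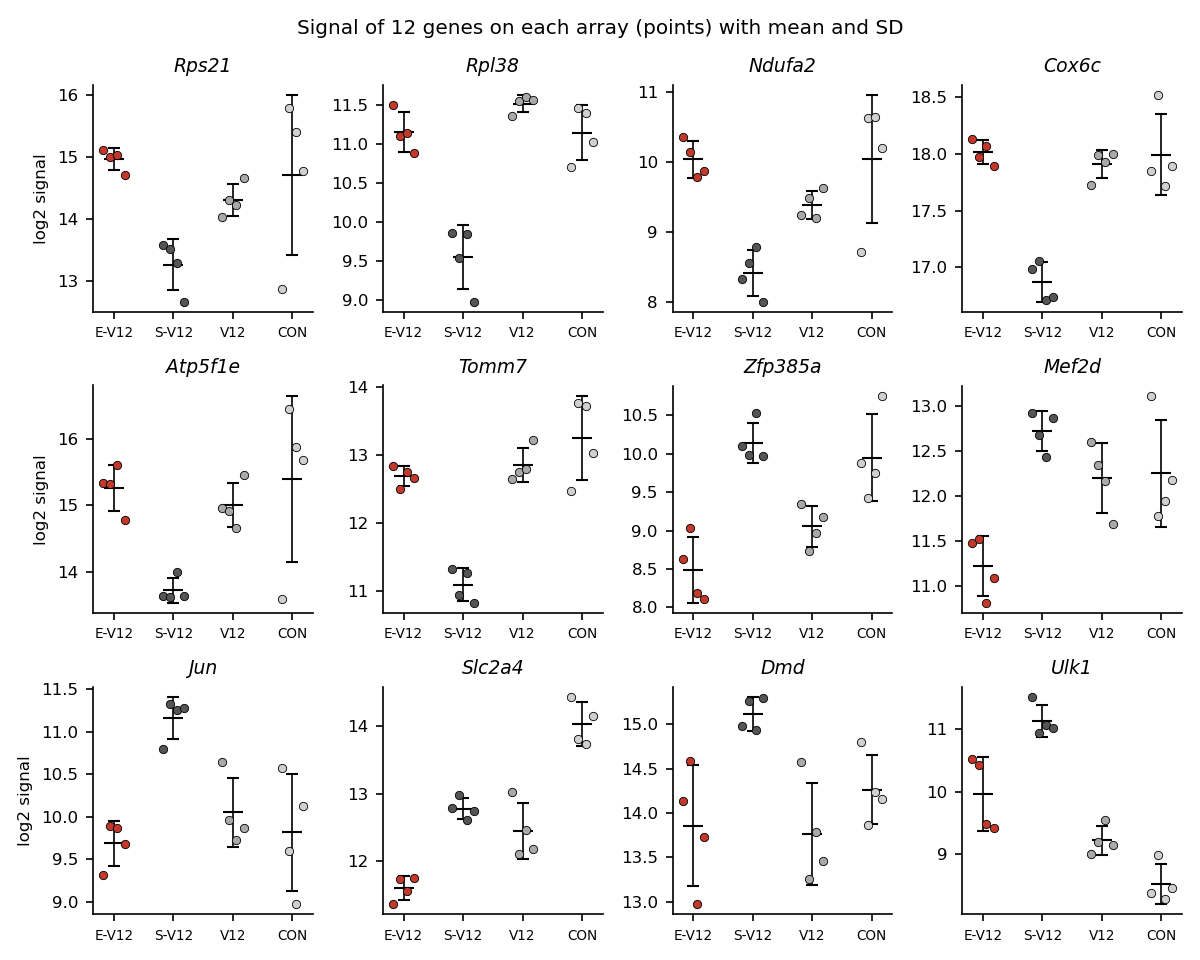
Log2 signal (vertical axes) of 12 genes on each array of E-V12, S-V12, V12 and CON (points), with the mean and SD of the 4 arrays of a group (bars). The upper 6 genes were called higher in E-V12 than in S-V12 and the lower 6 called lower, and in each panel every E-V12 array lies on one side of every S-V12 array.

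For Ndufa2 and Rps21 the mean of V12 lay between E-V12 and S-V12, at 9.38 and 14.30, and for Rpl38 and Tomm7 it lay above both, at 11.52 and 12.86. Over the 94 respiratory genes the mean signal was 12.85 ± 0.10 in E-V12 and 12.39 ± 0.16 in S-V12 (SD, n = 4 each), beside 13.14 ± 0.11 in V12 and 13.29 ± 0.29 in CON. Of the 18 respiratory calls named, Ndufa2, Ndufa1, Ndufb3, Ndufa7, Uqcrb, Cox6c, Cox7a2 and Cox8b held under all 25 alternatives. The number kept was 11, 11, 8 and 15 without E-V12 replicates 1 to 4 in turn and 12, 10, 15 and 9 without S-V12 replicates 1 to 4, and 16 without V12 replicate 2 and 17 without V12 replicate 3 or 4 or CON replicate 3 or 4. The methods' t-test kept 13 (adjusted p up to 0.107 in those lost), and a call lost without 1 array had an adjusted p of at most 0.14. The complex I count of 13 was 6, 5, 4 and 8 without E-V12 replicates 1 to 4 in turn and 6, 5, 11 and 5 without S-V12 replicates 1 to 4. That of 5 for complexes II and III was 3, 3, 1 and 4 and 3, 1, 4 and 1, that of 5 for complex IV was 3, 3, 3 and 4 and 4, 4, 4 and 3, and that of 3 for the ATP synthase was 0, 0, 0 and 2 and 0, 0, 2 and 0 in the same order. Without CON replicate 1, complex IV had 8 calls and the ATP synthase 5.

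Import and membrane organization of mitochondria followed for single members. Of 40 genes of mitochondrial import 5 were higher and 0 lower, with a median of 0.17, and of 67 mitochondrial ribosomal proteins 2 were higher and 0 lower, also with a median of 0.17. Those are 12.5% and 2.99% higher, against 0.99% over all named clusters and 238 of the 8574 clusters with a mean signal above background. Tomm7, a small subunit of the outer-membrane channel that also holds the mitophagy kinase PINK1 there, had log2 signals of 12.84, 12.50, 12.76 and 12.67 in E-V12, against 11.32, 10.95, 11.27 and 10.83 in S-V12, a difference of 1.601 ± 0.24 (adjusted p = 0.0051). Micos10, which shapes the crista junctions, had log2 signals of 14.16, 14.38, 14.46 and 13.91 in E-V12, against 12.80, 12.75, 13.05 and 12.29 in S-V12, a difference of 1.504 ± 0.25 (adjusted p = 0.00566). Romo1, a small inner-membrane protein, Dnajc19 of the import motor and Timm8a1, a chaperone of the intermembrane space, differed by 0.98 to 1.17 (adjusted p from 0.0215 to 0.0401). Mrpl18 and Mrps23 were the 2 ribosomal proteins of mitochondria that rose, by 0.82 and 0.76 (adjusted p = 0.0228 and 0.0477). Tomm7 and Micos10 held under all 25 alternatives. Of these 7 calls the number kept was 2, 2, 2 and 5 without E-V12 replicates 1 to 4 in turn and 3, 2, 6 and 2 without S-V12 replicates 1 to 4, and 6 without V12 replicate 2, 3 or 4 or CON replicate 3 or 4, with an adjusted p of up to 0.135 in those lost. By the methods' t-test 4 passed, with an adjusted p of up to 0.0675 in the others. The import count of 5 was 2 without each of E-V12 replicates 1, 2 and 3 and S-V12 replicates 1, 2 and 4. The mitochondrial ribosomal count of 2 was 1 or 0 without each of E-V12 replicates 1, 2 and 3, any S-V12 array, V12 replicates 2, 3 and 4 and CON replicates 3 and 4, and 6 without CON replicate 1.

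Other calls came from the proteasome, RNA polymerase II, the spliceosome and lists with a single higher member. In the proteasome list 2 of 46 genes rose and 1 fell (median 0.26), against 0.99% higher and 1.76% lower over all named clusters: Pomp, which guides assembly of the core, had log2 signals of 11.74, 11.80, 11.64 and 11.58 in E-V12, against 11.01, 10.29, 11.09 and 10.05 in S-V12, a difference of 1.08 ± 0.23 (adjusted p = 0.0187), and Psma1 of the core ring differed by 0.84 ± 0.19 (adjusted p = 0.0221), while Psmd3 of the regulatory lid differed by -0.85 ± 0.22 (adjusted p = 0.0386). Among 24 genes of RNA polymerase II and general factors 2 rose, with 23 above 0 and a median of 0.52. They were Polr2l, a subunit shared by all 3 nuclear polymerases, with log2 signals of 11.06, 10.47, 10.71 and 10.48 in E-V12, against 9.47, 9.55, 9.38 and 8.98 in S-V12, a difference of 1.33 ± 0.24 (adjusted p = 0.00747), and Polr2g, with a difference of 0.84 ± 0.20 (adjusted p = 0.0314). Of 26 Sm and LSm proteins of the spliceosome 2 rose, Lsm5 by 0.94 ± 0.23 and Snrpf by 0.86 ± 0.22 (adjusted p from 0.0301 to 0.0401), and Snrpf was below background on 2 E-V12 arrays and all S-V12 arrays. Magoh, of the complex left on spliced exon junctions, differed by 1.35 ± 0.34 (adjusted p = 0.0339). Sod1, the copper-zinc superoxide dismutase, was the only call among 38 NRF2 and antioxidant genes, at 0.66 ± 0.17 (adjusted p = 0.0453). Pgam2, the muscle form of a glycolytic mutase, differed by 1.06 ± 0.21 (adjusted p = 0.0122), Ifi27, an interferon-induced mitochondrial protein, by 1.18 ± 0.27 (adjusted p = 0.0261) and Pcna, the sliding clamp of DNA replication, by 0.89 ± 0.19 (adjusted p = 0.0192). Pgam2, Ifi27 and Pcna were each the one higher member of a list (glucose metabolism, interferon response and cell cycle). Polr2l alone among the 12 held under all 25 alternatives. Across the 12 calls those kept numbered 6, 6, 1 and 8 without E-V12 replicates 1 to 4 in turn and 3, 4, 7 and 2 without S-V12 replicates 1 to 4, and 10 without V12 replicate 2 and 11 without V12 replicate 3 or 4 or CON replicate 4. The highest adjusted p of a call lost without 1 array was 0.147, and 7 passed by the methods' t-test (up to 0.101 in the others). Counts of rises in the proteasome, polymerase and spliceosome lists, 2 each, were 0 to 3 without 1 of the 8 arrays, and 7, 6 and 4 without CON replicate 1. The proteasome count was also 4 without CON replicate 2, and the spliceosome count 1 without V12 replicate 2. The antioxidant count of 1 was 0 without each of 11 arrays, CON replicate 4 and V12 replicates 2, 3 and 4 among them, and 5 without CON replicate 1.

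Haemoglobin chains had the largest rises of all named genes, with a wide spread between arrays. In a list of 18 genes of haemoglobin chains and haem synthesis, 2 were called higher and 0 lower by limma, and 0 by the methods' t-test. The median was 0.23, with 7 below 0. That list does not hold all of the chains named here. Hbb, a beta chain, had log2 signals of 13.84, 13.63, 15.38 and 15.16 in E-V12, against 12.46, 12.52, 10.60 and 11.99 in S-V12, a difference of 2.60 ± 0.57 (adjusted p = 0.019). E-V12 replicates 3 and 4 were the highest and S-V12 replicate 3 the lowest, and the groups did not overlap. Hbbl1, a beta chain of closely similar sequence that the same probes may read, differed by 2.59 ± 0.56, and Hba-a1, an alpha chain, by 1.94 ± 0.46 (adjusted p from 0.0184 to 0.028). Of 10 other markers of red blood cells 0 were called by limma or by the methods' t-test, and 1 was higher at an unadjusted p under 0.05, with a mean signal of 4.45 to 4.59 on the E-V12 arrays, against 4.29 to 4.41 on the S-V12 arrays, without overlap, and 9 of the 10 were below background on all 8 arrays. With array weights or without CON replicate 2, 1 of the 10 was called higher. The part of residual blood was not tested. All 3 calls ended without E-V12 replicate 3 (adjusted p from 0.0811 to 0.114), E-V12 replicate 4 (0.0532 to 0.0789) or S-V12 replicate 3 (0.0556 to 0.0817), and that on Hba-a1 without S-V12 replicate 4 (0.0711). The methods' t-test kept 0 of the 3 (adjusted p from 0.0984 to 0.157), as did limma with trended and robust variances (0.0637 to 0.077).

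Genes called higher were shorter than genes called lower. Genes called higher had a median genomic span of 6.75 kb (149 genes), and genes called lower 23.9 kb (265 genes), against 24.7 kb for the 6160 genes with a mean signal above background. Without ribosomal and respiratory genes, the 96 remaining higher genes had a median span of 9.83 kb. Split by span into 10 classes of 616, genes above background had a median log2 difference of 0.12 in the shortest class (up to 4.74 kb), where 50 were higher and 15 lower, and of -0.24 in the longest class (from 113 kb), where 0 were higher and 31 lower. Leaving out ribosomal and respiratory genes, the median of the shortest class was 0.07, with 19 higher and 15 lower. Genes are not independent of each other, and no test was made of this description.

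**Figure D3:**
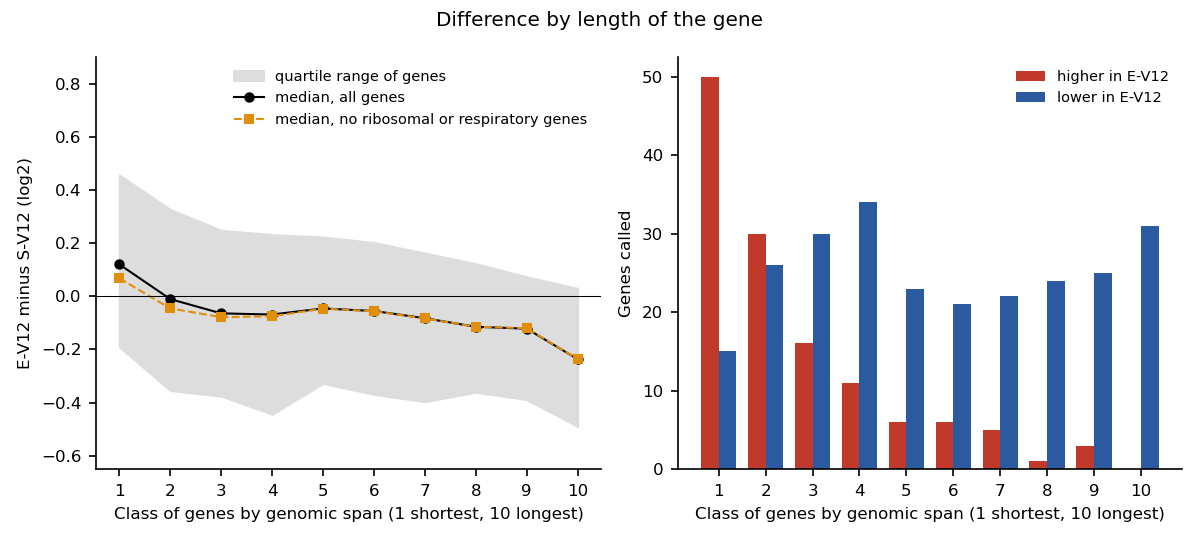
Log2 difference of E-V12 minus S-V12 (left, median, with the quartile range shaded) and number of genes called (right) in 10 classes of 6160 genes by genomic span, from the shortest (1) to the longest (10). The median falls to -0.24 in the longest class, against 0.12 in the shortest, and called higher genes number 50 in the shortest class and 0 in the longest.

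The groups also differed in spiked bacterial transcripts with poly-A tails, which are added to the RNA at the start of labeling. The mean over the 4 spikes was 5.96, 5.86, 6.26 and 5.83 on the E-V12 arrays, against 7.20, 6.96, 6.86 and 6.94 on the S-V12 arrays, with no overlap for any of the 4 (exact permutation test, two-sided p = 0.0286, the smallest that 4 against 4 allows, for each). Spikes added at hybridization did not separate the groups, with means of 10.98 to 11.11 on the E-V12 arrays and 10.98 to 11.15 on the S-V12 arrays (exact permutation test, p = 0.4). The mean of the array's exon control probe sets ran from 9.34 to 9.48 in E-V12, against 9.11 to 9.28 in S-V12 (exact permutation test, p = 0.0286), and the median of all clusters from 5.59 to 5.65 in E-V12, against 5.57 to 5.61 in S-V12 (exact permutation test, p = 0.143). Over all clusters the share above background was 36.6% to 40.9%. The part of what moved the spikes in the rises and falls described here was not tested.

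**Figure D4:**
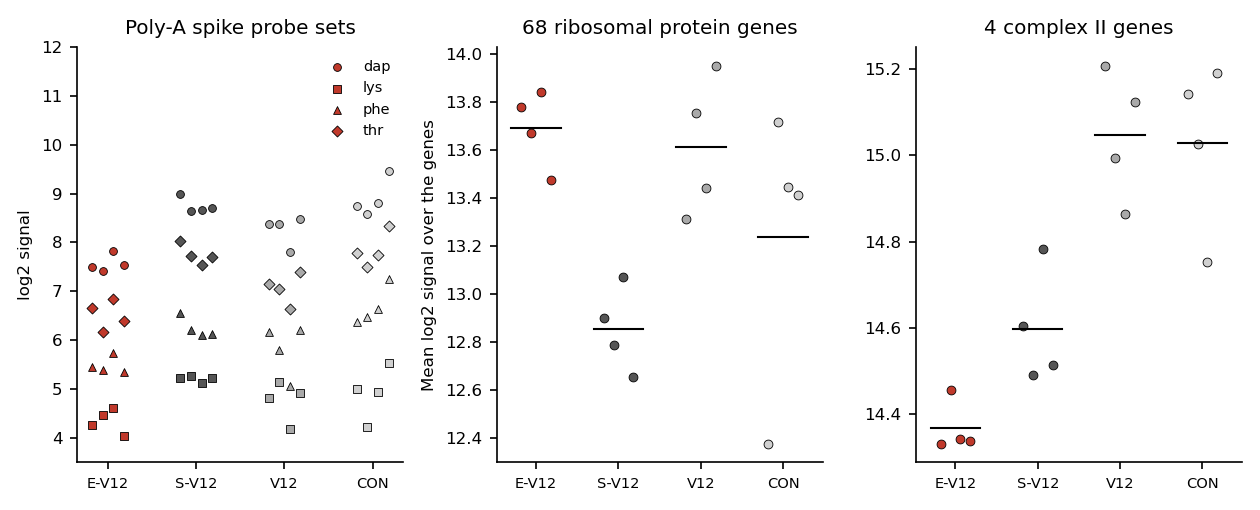
Log2 signal on each array of E-V12, S-V12, V12 and CON for the 4 poly-A spikes (left, 1 marker shape per spike) and mean log2 signal over 68 ribosomal protein genes (middle) and 4 complex II genes (right), with bars at the group means in the middle and right panels. The spikes and complex II are lower, and the ribosomal genes higher, on every E-V12 array than on every S-V12 array, and CON replicate 1 lies at 12.4 in the middle panel.

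Among the deepest falls were genes of signaling, glycan synthesis and transcription that share no list. Zfp385a, a zinc-finger protein that binds RNA and the p53 protein, had log2 signals of 8.63, 9.03, 8.19 and 8.11 in E-V12, against 10.10, 9.98, 10.53 and 9.97 in S-V12, a difference of -1.65 ± 0.26 (adjusted p = 0.0051). Pigq, of the first step in the synthesis of GPI membrane anchors, had log2 signals of 10.99, 11.49, 10.45 and 11.01 in E-V12, against 12.98, 12.64, 12.27 and 12.46 in S-V12, a difference of -1.603 ± 0.26 (adjusted p = 0.00524). Nfic, a nuclear factor I transcription factor, had log2 signals of 9.06, 8.97, 9.04 and 8.63 in E-V12, against 10.40, 10.61, 10.28 and 10.44 in S-V12, a difference of -1.504 ± 0.26 (adjusted p = 0.00672), with little spread in either group. Extl3, a glycosyltransferase that starts heparan sulfate chains, had the largest fall, with log2 signals of 11.05, 10.97, 8.93 and 9.50 in E-V12, against 11.69, 12.09, 11.81 and 12.60 in S-V12, a difference of -1.93 ± 0.41 (adjusted p = 0.0171), and E-V12 replicates 3 and 4 were far below replicates 1 and 2. Midn, which brings short-lived nuclear proteins to the proteasome, had log2 signals of 14.99, 14.68, 14.32 and 14.63 in E-V12, against 16.33, 15.92, 16.87 and 15.70 in S-V12, a difference of -1.55 ± 0.34 (adjusted p = 0.019). Dusp7, a phosphatase of the kinase ERK, differed by -1.51 ± 0.38, Fam107a, an actin-associated protein, by -1.56 ± 0.32, Padi2, a peptidylarginine deiminase, by -1.47 ± 0.29, and Acss1, which makes acetyl-CoA in mitochondria, by -1.46 ± 0.34. Leng8 and the nucleosome factor Glyr1 differed by -1.498 and -1.43. The adjusted p of these last 6 ran from 0.0122 to 0.0377, with separate groups for each. Zfp385a, Pigq and Nfic held under all 25 alternatives. Calls kept among these 11 numbered 11, 9, 3 and 6 without E-V12 replicates 1 to 4 in turn and 7, 5, 8 and 7 without S-V12 replicates 1 to 4. A call lost without 1 array had an adjusted p of up to 0.159, and 3 passed by the methods' t-test (up to 0.181 in the others).

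Regulators that carry activity and load to muscle genes fell in part. The list of MEF2, the deacetylases that hold it back and their kinases also held Srf. Of its 18 genes 2 fell and 0 rose (median -0.34), against 1.76% lower over all named clusters. Mef2d, one of the MEF2 factors, had log2 signals of 11.48, 11.52, 10.82 and 11.09 in E-V12, against 12.93, 12.69, 12.43 and 12.87 in S-V12, a difference of -1.501 ± 0.26 (adjusted p = 0.00672), and Srf, the serum response factor, had log2 signals of 9.42, 8.68, 9.01 and 9.29 in E-V12, against 10.26, 10.38, 10.35 and 9.86 in S-V12, a difference of -1.11 ± 0.30 (adjusted p = 0.0453). Of 44 activity-response and immediate early genes 4 fell and 0 rose (median -0.30). Jun, of the AP-1 factor, had log2 signals of 9.32, 9.89, 9.87 and 9.69 in E-V12, against 10.80, 11.32, 11.26 and 11.29 in S-V12, a difference of -1.48 ± 0.28 (adjusted p = 0.00909), with S-V12 replicate 1 below the other S-V12 arrays. Fosl2, a partner of JUN, differed by -1.12 ± 0.24 (adjusted p = 0.019), Dusp8, a phosphatase of stress kinases, by -0.99 ± 0.24 (adjusted p = 0.0314) and Csrnp1, a nuclear protein induced by AXIN1, by -0.81 ± 0.22 (adjusted p = 0.0495), and the groups overlapped for Csrnp1. Other immediate early genes varied widely within a group. Egr1 had log2 signals of 13.32, 12.45, 13.93 and 14.26 in E-V12, against 14.48, 14.73, 15.12 and 12.39 in S-V12, a difference of -0.69 ± 0.62 (adjusted p = 0.639), Nr4a1 a difference of -0.98 ± 0.56 (adjusted p = 0.401) and Nr4a3 one of -0.42 ± 0.56 (adjusted p = 0.78), none of which passed. Rcan1, a target and inhibitor of calcineurin, differed by -0.12 ± 0.32 (adjusted p = 0.903).

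Nfix, which in mice turns embryonic into fetal myogenesis, was the only call among 22 genes of calcineurin, NFAT and fiber type, with log2 signals of 15.93, 16.14, 15.17 and 15.47 in E-V12, against 16.71, 17.00, 16.75 and 16.90 in S-V12, a difference of -1.16 ± 0.29 (adjusted p = 0.0336). Cdkn1a, the p21 inhibitor of the cell cycle, had log2 signals of 14.81, 14.77, 14.76 and 14.65 in E-V12, against 16.05, 16.12, 15.95 and 15.64 in S-V12, a difference of -1.19 ± 0.29 (adjusted p = 0.0293), and was the only call among 25 myogenic genes. Its mean was 14.61 in V12 and 9.03 in CON, so that both groups of this comparison lay far above the unventilated muscle. The myogenic factor Myog differed by -0.69 ± 0.26 (adjusted p = 0.169), and Myod1 by -0.31 ± 0.23 (adjusted p = 0.557) at a signal below background on all 8 arrays. The single calls in the fiber-type and myogenic lists are 4.55% and 4.0% of their lists, against 1.76% lower over all named clusters. Among the 8574 clusters with a mean signal above background 324 were lower, a larger share, so nothing is read from these lists. Mef2d and Jun held under all 25 alternatives. Of the 8 calls the number kept was 4, 4, 2 and 3 without E-V12 replicates 1 to 4 in turn and 2, 2, 3 and 3 without S-V12 replicates 1 to 4, and 6 without V12 replicate 2 and 7 without V12 replicate 3 or CON replicate 2, 3 or 4, with an adjusted p of up to 0.145 in those lost, while the methods' t-test kept 4 (up to 0.138 in those lost). The immediate early count of 4 was 2, 2, 1 and 2 without E-V12 replicates 1 to 4 in turn and 1, 1, 2 and 2 without S-V12 replicates 1 to 4, and that of 2 in the MEF2 list was 1 without any of the 8 arrays or V12 replicate 2. The fiber-type count was 2 without CON replicate 1 or 2. The single calls in the fiber-type and myogenic lists ended without S-V12 replicate 1, 2, 3 or 4 or E-V12 replicate 3 or 4, and that on Cdkn1a also without E-V12 replicate 1 or 2.

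Genes that tie the contractile fiber to its membrane and its nerve fell for single members. Of 42 genes of the costamere, the dystrophin complex and focal adhesions 5 fell and 0 rose, with a median of -0.35 and 36 below 0. That is 11.9% lower, against 1.76% over all named clusters and 324 of the 8574 clusters with a mean signal above background. Both are to be set beside the other counts here. Dmd, which codes for dystrophin, had log2 signals of 14.13, 14.59, 12.98 and 13.73 in E-V12, against 14.98, 15.27, 14.93 and 15.30 in S-V12, a difference of -1.26 ± 0.30 (adjusted p = 0.0285), with E-V12 replicate 3 the lowest. Tns1 and Tns3 are tensins, which bind integrin tails to actin. Tns1 had log2 signals of 11.41, 12.76, 12.07 and 12.30 in E-V12, against 13.84, 13.82, 13.62 and 13.72 in S-V12, a difference of -1.62 ± 0.30 (adjusted p = 0.00958), and Tns3 a difference of -0.92 ± 0.24 (adjusted p = 0.0401). Git1, an adaptor at adhesions, differed by -1.08 ± 0.25 (adjusted p = 0.0241), and Itga7, the laminin-binding integrin chain of muscle, had log2 signals of 11.35, 11.09, 10.999 and 11.09 in E-V12, against 11.74, 11.71, 13.03 and 12.22 in S-V12, a difference of -1.05 ± 0.27 (adjusted p = 0.0425). Itga7 was named after its value was seen. Of 42 Z-disc and thin-filament genes 2 fell and 0 rose, Dmd again and Synpo2, a Z-disc protein, with a difference of -1.25 ± 0.33 (adjusted p = 0.0429). Ncam1, the adhesion molecule that denervated fibers spread over their surface, had log2 signals of 9.94, 9.82, 8.41 and 8.28 in E-V12, against 10.44, 10.50, 10.22 and 10.89 in S-V12, a difference of -1.40 ± 0.37 (adjusted p = 0.0465), and was the only call among 23 genes of the neuromuscular junction (median -0.44).

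In the list of membrane channels and pumps 3 of 28 fell and 0 rose (median -0.36), against 1.76% lower over all named clusters. Scn4a, the sodium channel of the muscle action potential, had log2 signals of 11.59, 11.74, 11.20 and 11.49 in E-V12, against 12.72, 12.73, 12.75 and 13.01 in S-V12, a difference of -1.30 ± 0.25 (adjusted p = 0.0122). Abcc9, the sulfonylurea receptor of the ATP-sensitive potassium channel, differed by -1.16 ± 0.28 and Kcnma1, a calcium-activated potassium channel, by -0.97 ± 0.26 (adjusted p from 0.0314 to 0.0468). Abcc9 is also a marker of pericytes, and was the only call among 14 markers of smooth muscle and pericytes, whose mean signal was 7.55 to 7.80 in E-V12, against 7.88 to 8.13 in S-V12, without overlap. Excitation-contraction coupling had 2 of 31 lower and 0 higher (median -0.29), Cacnb1, a subunit of the voltage sensor, at -0.98 ± 0.23 and Stim1, the calcium sensor of store-operated entry, at -0.87 ± 0.23 (adjusted p from 0.0274 to 0.0456). Mylk2, the myosin light chain kinase of skeletal muscle, was the only call among 16 genes of fast-fiber contraction, at -0.92 ± 0.25 (adjusted p = 0.0452), and of 12 slow-fiber genes 0 were called by limma (before adjustment 2 were higher and 1 lower at p under 0.05, and 1 was higher by the methods' t-test). The medians of the fast and slow lists were 0.02 and -0.03. Pecam1, of endothelial junctions, differed by -1.08 ± 0.27 (adjusted p = 0.0322). Its signal was below background on E-V12 replicate 4 (6.30) and 6.90 to 6.93 on the other E-V12 arrays, where the highest background probe set reached 6.75. Pecam1 was the only call among 14 endothelial markers, 13 of which lay below 0 and 3 of which were below background on all 8 arrays. Their mean signal was 6.58 to 6.80 in E-V12, against 6.98 to 7.38 in S-V12, without overlap, and the part of endothelium and pericytes in the other falls was not tested. None of these 14 calls held under all 25 alternatives. Kept calls among the 14 were 8, 10, 1 and 2 without E-V12 replicates 1 to 4 in turn and 5, 2, 3 and 3 without S-V12 replicates 1 to 4, and 13 without V12 replicate 1 or CON replicate 3 or 4, 7 without V12 replicate 2, 10 without V12 replicate 3 and 11 without V12 replicate 4. The methods' t-test kept 3 (adjusted p up to 0.184 in those lost), and the adjusted p of calls lost without 1 array reached 0.178. The costamere count of 5 was 5, 3, 1 and 2 without E-V12 replicates 1 to 4 in turn, 2, 1, 2 and 1 without S-V12 replicates 1 to 4, 3 without V12 replicate 2 and 9 without CON replicate 1. Counts for the Z-disc, channel and coupling lists were 0 without E-V12 replicate 3, 0 to 3 without any other of the 8 arrays, and 5, 5 and 4 without CON replicate 1. The coupling count of 2 was 1 without V12 replicate 2, 3 or 4, the Z-disc count of 2 was 1 without V12 replicate 2 or 3, and the junction count of 1 was 4 without V12 replicate 1 and 0 without V12 replicate 2 or 3, CON replicate 3 or 4, any S-V12 array or E-V12 replicate 3 or 4.

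Single genes of fuel use fell at points of glucose entry, storage and oxidation. Of 48 genes of glucose transport, glycogen and glycolysis 3 fell (6.25%), and Pgam2, above, rose. Over all named clusters 1.76% were lower and 0.99% higher. Of the 8574 clusters with a mean signal above background 324 were lower and 238 higher, and both are to be set beside the counts here. Slc2a4, the insulin- and contraction-responsive transporter GLUT4, had log2 signals of 11.37, 11.73, 11.56 and 11.75 in E-V12, against 12.78, 12.97, 12.60 and 12.75 in S-V12, a difference of -1.18 ± 0.21 (adjusted p = 0.00862), Gys1, muscle glycogen synthase, differed by -1.08 ± 0.23 (adjusted p = 0.0179) and Pdk2, which switches off pyruvate dehydrogenase, had log2 signals of 13.07, 13.26, 12.86 and 12.57 in E-V12, against 14.02, 14.08, 14.09 and 13.94 in S-V12, a difference of -1.09 ± 0.24 (adjusted p = 0.019). In the tricarboxylic acid cycle 2 of 15 fell and 0 rose (median -0.21). Ogdh, the E1 subunit of the oxoglutarate dehydrogenase, had log2 signals of 17.05, 17.14, 17.00 and 17.09 in E-V12, against 17.91, 17.83, 17.998 and 17.80 in S-V12, a difference of -0.81 ± 0.21 (adjusted p = 0.0396), with little spread in either group, and Pc, pyruvate carboxylase, differed by -1.08 ± 0.24 (adjusted p = 0.0204). Of 39 genes of lipid uptake and storage 2 fell and 0 rose (median -0.27). Gpd1, which makes glycerol 3-phosphate for lipids and shuttles NADH into mitochondria, had log2 signals of 16.24, 15.88, 16.12 and 16.40 in E-V12, against 17.02, 17.23, 17.34 and 17.32 in S-V12, a difference of -1.07 ± 0.21 (adjusted p = 0.0112), and Mlxipl, the carbohydrate-responsive factor ChREBP, differed by -1.16 ± 0.30 (adjusted p = 0.0404).

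Ppard, the PPAR isoform that predominates in muscle and drives fatty acid oxidation, had log2 signals of 10.98, 11.91, 10.81 and 11.41 in E-V12, against 12.18, 12.48, 12.43 and 12.32 in S-V12, a difference of -1.08 ± 0.29 (adjusted p = 0.0472), and was the only call among 41 genes of the PPARs and fatty acid oxidation, 32 of which lay below 0 (median -0.24). Its mean was 10.31 in V12 and 9.45 in CON. That 1 call is 2.44% of the list, near the 1.76% lower over all named clusters, so nothing is read from the list. Ppara differed by -0.75 ± 0.29 (adjusted p = 0.169) and Cpt1a, which admits fatty acids to mitochondria, by -0.80 ± 0.29 (adjusted p = 0.153). Ppargc1a, the coactivator PGC-1α of mitochondrial biogenesis, had log2 signals of 7.05, 7.54, 6.82 and 7.30 in E-V12, against 7.75, 7.22, 8.50 and 7.95 in S-V12, which overlapped, with a difference of -0.68 ± 0.43 (adjusted p = 0.47). In its list 1 of 24 fell, Mief1, an adaptor of mitochondrial fission, at -0.79 ± 0.20 (adjusted p = 0.033). Of 42 genes of amino acid transport and metabolism 3 fell and 0 rose (median -0.30), or 7.14% lower against 1.76% over all named clusters. Slc7a8, the neutral amino acid exchanger LAT2, had log2 signals of 9.86, 11.91, 10.72 and 11.25 in E-V12, against 11.63, 13.61, 11.65 and 13.70 in S-V12, a difference of -1.71 ± 0.46 (adjusted p = 0.0475), and its groups overlapped. Slc43a2, another transporter of neutral amino acids, had log2 signals of 8.60, 8.31, 8.70 and 8.27 in E-V12, against 9.26, 9.63, 9.34 and 10.12 in S-V12, a difference of -1.12 ± 0.22 (adjusted p = 0.0122), and Bcat2, which opens the breakdown of branched-chain amino acids in muscle, differed by -0.77 ± 0.19 (adjusted p = 0.0304). Slc2a4 and Gpd1 held under all 25 alternatives. For the 12 calls the number kept was 7, 9, 3 and 5 without E-V12 replicates 1 to 4 in turn and 8, 4, 7 and 5 without S-V12 replicates 1 to 4, and 11 without V12 replicate 1 or 4 or CON replicate 2 or 3, 8 without V12 replicate 2 and 10 without V12 replicate 3 or CON replicate 4. Calls lost without 1 array reached an adjusted p of 0.175, and the methods' t-test kept 6 (up to 0.288 in those lost). The 3 falls in the glucose list were 1 without E-V12 replicate 3 and numbered 2 or 3 without any other of the 8 arrays, and 5 without CON replicate 1. The lipid count of 2 was 1 without E-V12 replicates 2, 3 or 4, any S-V12 array or V12 replicate 2, and the amino acid count of 3 was 1 without E-V12 replicates 1, 3 or 4 or S-V12 replicate 2. Those of the tricarboxylic acid cycle were 0 without E-V12 replicate 2 or 3 or S-V12 replicate 2 or 4 and 1 without any other of the 8 arrays or V12 replicate 2. The PPAR count was 3 without CON replicate 1 and 0 without E-V12 replicate 1, 3 or 4, S-V12 replicate 1, 2 or 4, CON replicate 4, or V12 replicate 1, 2 or 3.

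Growth signaling and autophagy had falls on both sides of the kinase mTOR. Of 38 genes of insulin, AKT and growth signaling 4 fell and 0 rose, with a median of -0.37 and 33 below 0. That is 10.5% lower, against 1.76% over all named clusters. The 4 falls were Akt2, the AKT form that carries the insulin signal to glucose uptake, with log2 signals of 13.72, 13.67, 13.42 and 13.40 in E-V12, against 14.47, 14.33, 14.56 and 14.29 in S-V12, a difference of -0.86 ± 0.19 (adjusted p = 0.0184), Tsc2, an inhibitor of mTOR, at -1.06 ± 0.25 (adjusted p = 0.0281), Mtor itself, at -0.81 ± 0.22 (adjusted p = 0.0489), and Gsk3a, a kinase that inhibits glycogen synthase, at -0.73 ± 0.19 (adjusted p = 0.0446). In the list of autophagy, mitophagy and lysosome 5 of 42 fell and 0 rose (median -0.17), or 11.9% lower against the same 1.76%. Ulk1, the kinase that starts autophagy, had log2 signals of 10.53, 10.43, 9.48 and 9.42 in E-V12, against 11.52, 10.94, 11.06 and 11.02 in S-V12, a difference of -1.17 ± 0.25 (adjusted p = 0.0182), with E-V12 replicates 3 and 4 well below replicates 1 and 2, and its mean was 9.22 in V12 and 8.53 in CON. Its partner Atg13 differed by -0.96 ± 0.24 (adjusted p = 0.0319). Pink1, the mitophagy kinase, had log2 signals of 12.18, 12.20, 12.07 and 12.12 in E-V12, against 13.38, 12.92, 13.23 and 13.29 in S-V12, a difference of -1.06 ± 0.26 (adjusted p = 0.0323), with the E-V12 values close together. Calcoco1, an autophagy receptor, and Atp6v0a1, a subunit of the lysosomal proton pump that was named after its value was seen, differed by -0.75 and -0.80 (adjusted p = 0.0396 and 0.0458).

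Stress regulators gave 1 call per list, which is 2.63% to 3.7% of a list against 1.76% lower over all named clusters, so the calls are described by gene and nothing is read from the lists. Epas1, the hypoxia-inducible factor HIF-2α, had log2 signals of 14.38, 15.01, 13.92 and 13.98 in E-V12, against 15.73, 15.49, 15.93 and 15.57 in S-V12, a difference of -1.36 ± 0.29 (adjusted p = 0.0183), as the only call among 27 genes of hypoxia and angiogenesis. Ern1, the sensor IRE1 of the endoplasmic reticulum, differed by -1.03 ± 0.22 (adjusted p = 0.018), 1 of 36 in its list. Dnajb5, a co-chaperone, differed by -0.91 ± 0.23 (adjusted p = 0.0407), 1 of 38 heat shock genes, and Bak1, which opens the mitochondrial outer membrane in apoptosis, by -0.76 ± 0.20 (adjusted p = 0.0452), 1 of 32. The ubiquitin ligases of atrophy did not pass. Fbxo32 (atrogin-1) had log2 signals of 18.01, 18.52, 18.01 and 17.38 in E-V12, against 18.27, 18.60, 18.64 and 19.00 in S-V12, a difference of -0.65 ± 0.22 (adjusted p = 0.122), and Trim63 (MuRF1) had log2 signals of 17.24, 17.96, 18.11 and 17.33 in E-V12, against 17.32, 17.69, 17.60 and 17.79 in S-V12, a difference of 0.06 ± 0.27 (adjusted p = 0.944), so that the groups overlapped for both. Foxo1, which drives both ligases, differed by -0.61 ± 0.32 (adjusted p = 0.357) and Mstn, the growth inhibitor myostatin, by 0.19 ± 0.35 (adjusted p = 0.85). In the whole list of 24 atrophy and FOXO genes 0 were called by limma or by the methods' t-test (median -0.25), and before adjustment 2 were higher and 5 lower at p under 0.05. With limma on the 8 arrays alone, with array weights and without CON replicate 1, 1 was called higher and 1 lower, and without CON replicate 2, 1 higher. Fbxo32 and Trim63 averaged 18.41 and 17.08 in V12 and 16.53 and 13.14 in CON. None of the 13 growth, autophagy and stress calls held under all 25 alternatives. Calls kept among the 13 numbered 6, 7, 0 and 0 without E-V12 replicates 1 to 4 in turn and 3, 4, 5 and 3 without S-V12 replicates 1 to 4, and 8 without V12 replicate 2, 10 without V12 replicate 3 or 4, 12 without CON replicate 3 and 11 without CON replicate 4. Those lost without 1 array reached an adjusted p of 0.157, and the methods' t-test kept 5 (up to 0.129 in those lost). The growth signaling count of 4 was 3, 2, 0 and 0 without E-V12 replicates 1 to 4 in turn, 2, 1, 2 and 1 without S-V12 replicates 1 to 4, 2 without V12 replicate 2 or 4 and 7 without CON replicate 1. The autophagy count of 5 was 2, 2, 0 and 0 and 0, 1, 1 and 1 in the same order.

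Clock genes had no call at an adjusted p under 0.05. Nr1d1, the clock repressor REV-ERBα, had log2 signals of 10.34, 10.93, 10.61 and 9.67 in E-V12, against 11.30, 11.88, 12.49 and 11.82 in S-V12, a difference of -1.48 ± 0.49 (adjusted p = 0.105), and Per1 log2 signals of 11.46, 11.75, 11.75 and 12.25 in E-V12, against 13.16, 13.37, 12.86 and 12.66 in S-V12, a difference of -1.21 ± 0.47 (adjusted p = 0.178). The groups were separate in both. Of 20 clock genes 0 were called by limma or by the methods' t-test after adjustment (median -0.34), while 7 were lower and 0 higher at an unadjusted p under 0.05, Nr1d1 and Per1 among them, both past a fold of 2. With limma on the 8 arrays alone 5 were called lower, with array weights 6, without CON replicate 1 the count was 4, and it was 1 with the replicate block or without CON replicate 3. Wdtc1, a WD-repeat protein that limits fat storage, fell, with log2 signals of 10.82, 10.61, 10.63 and 10.53 in E-V12, against 12.09, 11.56, 11.84 and 11.77 in S-V12, a difference of -1.17 ± 0.22 (adjusted p = 0.00909), and held under all 25 alternatives. Cntfr, the receptor chain for ciliary neurotrophic factor, had log2 signals of 10.25, 9.52, 10.11 and 10.29 in E-V12, against 11.76, 11.10, 12.25 and 10.72 in S-V12, a difference of -1.42 ± 0.46 (adjusted p = 0.1). Pnpla7, a lysophospholipase of muscle, differed by -0.75 ± 0.29 (adjusted p = 0.187), and Mapk14, the stress kinase p38α, by -0.05 ± 0.20 (adjusted p = 0.934). Socs3, a feedback inhibitor of cytokine receptors, had log2 signals of 11.54, 8.78, 11.72 and 10.80 in E-V12, against 13.29, 11.77, 12.82 and 10.85 in S-V12, a difference of -1.47 ± 0.49 (adjusted p = 0.108), with overlapping groups and the widest spread within E-V12 of the genes named.

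**Figure D5:**
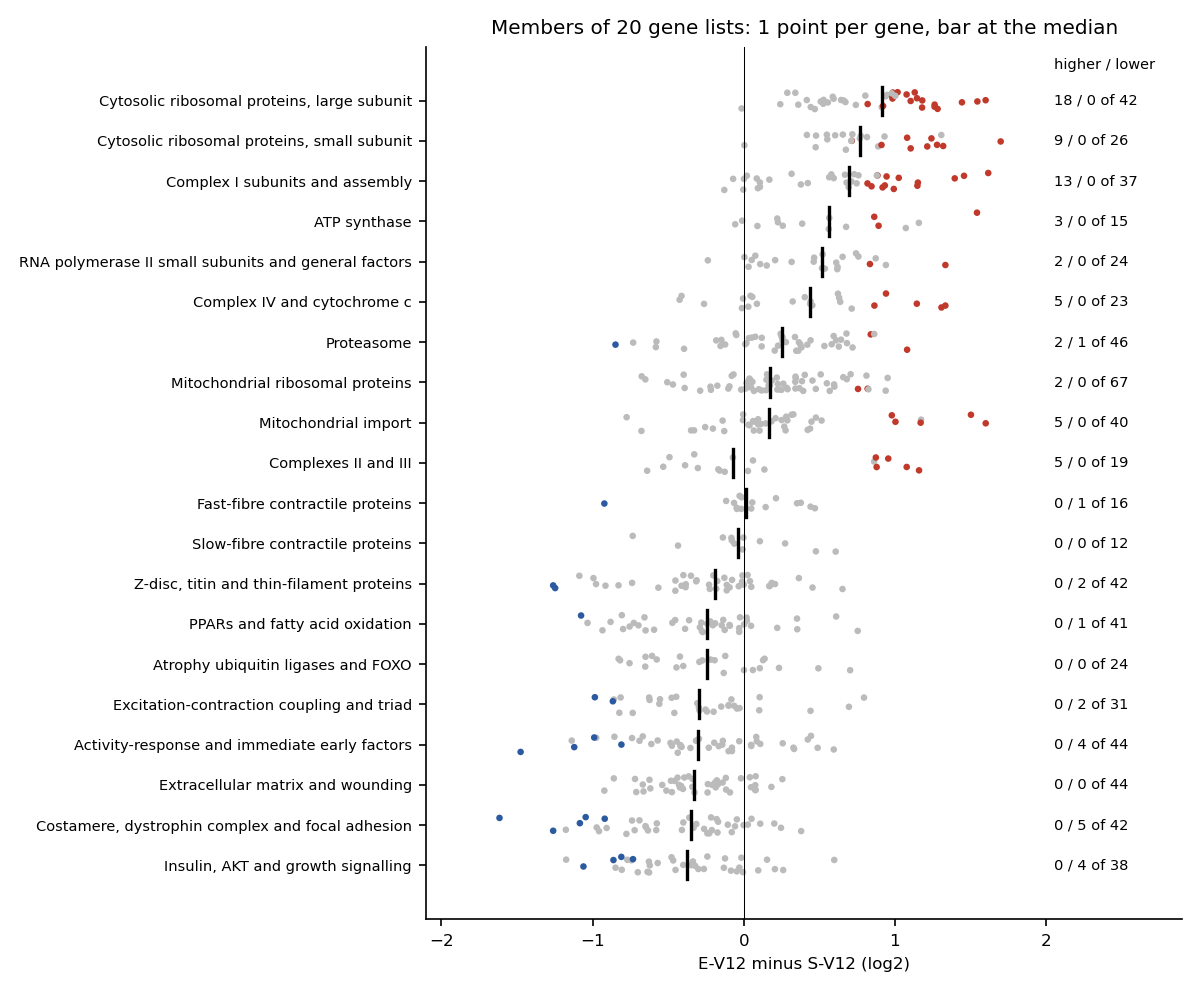
Log2 difference of E-V12 minus S-V12 (horizontal axis) for the members of 20 gene lists, 1 point per gene, with a bar at the median of each list. Red points were called higher and blue points called lower, and the numbers at the right give both counts and the genes measured. The 2 ribosomal lists hold 18 and 9 of the red points.

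Several programs had no call by limma over the 16 arrays or by the methods' t-test after adjustment. Of 38 inflammatory genes 0 passed (median -0.07), and before adjustment 2 were higher and 6 lower at p under 0.05. Of 44 genes of extracellular matrix and wounding 0 passed (median -0.33), with 0 and 2. The glucocorticoid response (26 genes, median -0.30) had 0 higher and 4 lower at that unadjusted threshold, and myostatin, activin and BMP signaling (33 genes, median -0.04) had 0 and 2. With limma on the 8 arrays alone 2 inflammatory and 1 glucocorticoid gene were called lower, with array weights 3 and 1, beside 1 of the matrix and 1 of the BMP list, and without CON replicate 1 they were again 2 and 1, beside 1 of the BMP list. Without S-V12 replicate 4, 1 inflammatory gene was called lower. Skeletal muscle fiber markers, as the labeled tissue requires, were high, with a mean over 14 genes of 19.55 to 19.62 in E-V12, against 19.48 to 19.54 in S-V12, without overlap and near the highest value of the table, where values are compressed. Of the 14 genes 0 were called by limma or by the methods' t-test, and before adjustment 2 were higher and 0 lower at p under 0.05. Markers of neutrophils, macrophages, lymphocytes, fibroblasts, mesothelium, adipocytes, Schwann cells and liver had 0 calls each by limma and by the methods' t-test, with 0 to 2 in a direction at an unadjusted p under 0.05, and their means overlapped between the groups. Below background on all 8 arrays were 13 of 14 lymphocyte, 11 of 13 liver, 11 of 14 Schwann cell and 9 of 13 neutrophil markers. The same held for 5 of 18 macrophage, 4 of 11 adipocyte, 3 of 13 fibroblast and 2 of 10 mesothelial markers. Such markers cannot show if the share of a cell type changed. With limma on the 8 arrays alone and with array weights, 1 macrophage marker was called lower and 1 adipocyte marker higher, and 1 macrophage marker was called lower without V12 replicate 1 and 1 adipocyte marker higher without CON replicate 1. Mesothelium, whose cells cover the muscle, ran from 6.08 to 7.82 on the E-V12 arrays, against 6.31 to 6.75 on the S-V12 arrays.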

How the data were processed

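RNA from the diaphragms of 16 rats was hybridized to 16 Clariom S rat arrays. The deposited values are log2 signals, which the authors made by SST-RMA in the Transcriptome Analysis Console, so background correction and normalization between arrays were done before deposit (no source used here gives its version). They were used without further normalization, after leaving out 1646 control probe sets of 24834 table entries. Normalization of this kind gives each array a like distribution, so a difference is relative to the other genes. No raw scanner data were used here. The number of arrays limits the precision, and values near the highest in the table (19.93) are compressed.

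E-V12 minus S-V12 was fitted with limma 3.58.1 (R 4.3.3) in a model of 4 group means over all 16 arrays, with eBayes, two-sided, and Benjamini-Hochberg adjustment over 23188 transcript clusters. A cluster was called at an adjusted p under 0.05. Groups are called separate where no array of one overlaps the other, and errors beside differences are standard errors of the fit. Control probe sets were compared by exact permutation tests. A signal is below background where it is under the highest background probe set of its array. The fit was tested on simulated data, where 47% of planted log2 changes of 1 and 96% of those of 2 were found among 200 planted, with 7 false calls in 23188 clusters. Its noise was drawn independently for each cluster and array, without shifts shared by genes or by a group. The number of false calls therefore does not carry over to the real arrays.

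Symbols came from the platform annotation (15049 clusters with 1 symbol, 8139 with none), and the cluster of highest mean signal stands for a symbol. Named genes are the 15 largest rises and 15 largest falls among called clusters, up to 4 called members per list with the smallest adjusted p, and a set of genes of the study, with Itga7, Atp6v0a1, Uqcc2, Cox17 and Timm8a1 added after their values were seen. The members and the 57 lists were chosen with earlier results of these data known. Gene spans and promoters are from RefSeq (GRCr8), and gene span stands in for a description of protein length that was planned. Alternatives were the t-test of the methods (equal variances), 2-group limma, array weights, trended and robust variances, a filter on the lowest 25% of clusters, median centring, quantile normalization, 1 cluster per symbol, other thresholds, a replicate block, and omission of each array. That t-test was run on the E-V12 and S-V12 arrays with Benjamini-Hochberg adjustment added. The methods do not say which arrays entered the test of the study.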

Additional observations from a re-analysis of the deposited data

Results flagged for a closer look

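In 298 groups of 4 arrays, for named genes and control probe sets, 15 held an array whose gap to its nearest neighbor took up more of the group's range than Dixon's critical value for 4 samples allows, which chance passes in about 1 group of 20. Rpl30 was highest on S-V12 replicate 3, at 12.46 against 11.93 to 11.99 on the other S-V12 arrays (gap 0.879 of the range). Uqcr10 was highest on S-V12 replicate 3, at 13.80 against 13.18 to 13.22 on the other S-V12 arrays (gap 0.939 of the range). Atp5f1e was highest on S-V12 replicate 3, at 14.00 against 13.62 to 13.63 on the other S-V12 arrays (gap 0.956 of the range). Atp5pf was highest on S-V12 replicate 3, at 13.88 against 13.37 to 13.41 on the other S-V12 arrays (gap 0.93 of the range). Dnajc19 was lowest on E-V12 replicate 4, at 13.56 against 13.88 to 13.94 on the other E-V12 arrays (gap 0.849 of the range). Pgam2 was lowest on E-V12 replicate 4, at 16.09 against 16.46 to 16.51 on the other E-V12 arrays (gap 0.873 of the range). Jun was lowest on S-V12 replicate 1, at 10.80 against 11.26 to 11.32 on the other S-V12 arrays (gap 0.874 of the range). Csrnp1 was lowest on S-V12 replicate 4, at 8.42 against 9.26 to 9.30 on the other S-V12 arrays (gap 0.953 of the range). Scn4a was highest on S-V12 replicate 4, at 13.01 against 12.72 to 12.75 on the other S-V12 arrays (gap 0.871 of the range). Pecam1 was lowest on E-V12 replicate 4, at 6.30 against 6.90 to 6.93 on the other E-V12 arrays (gap 0.94 of the range). Mief1 was lowest on S-V12 replicate 1, at 8.52 against 8.94 to 8.97 on the other S-V12 arrays (gap 0.938 of the range). The poly-A spike dap was highest on S-V12 replicate 1, at 9.0005 against 8.65 to 8.70 on the other S-V12 arrays (gap 0.86 of the range). The hybridization spike cre was lowest on S-V12 replicate 4, at 12.88 against 12.95 to 12.96 on the other S-V12 arrays (gap 0.889 of the range). The mean of the background probe sets was lowest on E-V12 replicate 3, at 4.54 against 4.68 to 4.70 on the other E-V12 arrays (gap 0.866 of the range). The highest background probe set was highest on E-V12 replicate 2, at 6.75 against 6.41 to 6.45 on the other E-V12 arrays (gap 0.888 of the range). S-V12 replicate 3 accounted for 4 of the 15, S-V12 replicates 1 and 4 and E-V12 replicate 4 for 3 each, and E-V12 replicates 2 and 3 for 1 each.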

How the results depend on the processing

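The adjusted counts of 277 higher and 351 lower were 567 and 749 with limma on the 8 arrays alone, 670 and 871 with array weights, and 149 and 170 when a fold of 2 was also required. With 1 cluster per symbol they were 158 and 282. Omitting 1 array at a time gave 45 to 526 higher and 29 to 656 lower, the fewest without E-V12 replicate 3 and the most without CON replicate 1. The counts at a fold of 2, 205 and 234, were 174 to 274 and 162 to 306 without 1 array, 1020 and 1326 at a fold of 1.5, and 80 and 176 with 1 cluster per symbol. Of the 628 calls, 287 were shared with the 525 of the methods' t-test after adjustment. Higher genes were 44.1% of the calls, against 52.2% after quantile normalization, 36.8% after median centring, 35.9% with 1 cluster per symbol and 34.96% to 62.1% without 1 array. Why the counts moved was not tested. Of 114 called genes named 0 changed sign, which omission of an array cannot cause where groups are separate. Under all 25 alternatives 23 kept the call. With the methods' t-test 55 lost it after adjustment, which the threshold of the study did not include. Among genes not called, the sign turned for Rcan1 without E-V12 replicate 2 (0.17, over a range of -0.28 to 0.17 without 1 array), for Trim63 without S-V12 replicate 1 (-0.03), E-V12 replicate 2 (-0.04) and E-V12 replicate 3 (-0.088, range -0.088 to 0.20), and for Mapk14 without S-V12 replicate 4 (0.0054) and E-V12 replicate 4 (0.045, range -0.13 to 0.045). The labels do not say what arrays of the same replicate number share, and a common day or batch was not tested. Over all clusters, deviations of same-numbered E-V12 and S-V12 arrays correlated at -0.01 to 0.05. Of the 4 E-V12 arrays 0 correlated best with the S-V12 array of the same number. With the replicate block, 283 were higher and 390 lower, and 570 of the 628 calls were shared.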
